A study of Sus scrofa with 27 samples.

Results

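The NR4A nuclear receptors and 5 genes that act in or respond to signalling by the second messenger cAMP were followed in pig lungs kept alive by ex vivo lung perfusion (EVLP). The 8 genes were NR4A1, NR4A2, NR4A3, CREM, PDE4B, PDE4D, RGS2 and GPR3. They were taken by symbol from a table of 31908 genes, with the condition that a gene reach 10 counts in at least 1 library, and all 8 met it. GPR3 had the lowest maximum, 257 counts. The genes were chosen by their measured counts and fold changes over EVLP in these same libraries, so the p-values below describe these libraries and are not independent support for the choice.

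All lungs came from Large White pigs used as non-heart-beating donors, and each lung spent a period of cold ischemia before a 12h EVLP in Steen solution with methylprednisolone, cefuroxime and heparin, which all groups shared. In the Gold Standard (GS) group of 5 pigs, numbered 9, 17, 44, 55 and 77, part of the perfusate was replaced at intervals, and in the Pediatric Dialysis (PD) group of 4 pigs, numbered 2, 3, 4 and 5, a pediatric hemodialysis membrane was placed on the circuit. Biopsies were taken at 0h, after the cold ischemia and before EVLP, and at 6h and 12h, which gave 27 bulk RNA-seq libraries with 9 pigs at each time. The PD lungs at 0h had therefore not been dialysed. Age and sex of the pigs are not given in the sources used here. No lung was kept without EVLP over the same hours, so time outside the body and EVLP itself cannot be told apart. Biopsies are mixtures of cell types, so fewer cells of a type and less RNA per cell cannot be told apart either. Of the markers listed for alveolar, endothelial, smooth muscle, fibroblast and macrophage cells, those in the table were each counted in at least 1 library.

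Cyclic AMP is made by adenylyl cyclases when receptors coupled to the stimulatory G protein Gs are active. It activates protein kinase A, which phosphorylates the transcription factor CREB. CREB binds a DNA site called the cAMP response element (CRE). Genes with such sites include NR4A receptors, orphan nuclear receptors that are also induced within minutes by growth factors, stress and calcium, and CREM, from which a short repressor isoform (ICER) is made. The phosphodiesterases PDE4B and PDE4D degrade cAMP, RGS2 shortens signalling by G proteins, and GPR3 is a receptor that activates Gs without an added ligand. In the lung, cAMP relaxes airway and vascular smooth muscle, supports the endothelial barrier and restrains leukocytes.

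The sequences upstream of 3 of the genes are shown because they hold the CRE letters most plainly. The windows searched ran from 250 bases before to 50 after the start of each RefSeq mRNA on the Sscrofa11.1 assembly, on both strands, for the full palindrome TGACGTCA and for the core TGACG. A full palindrome also counts as 2 overlapping cores, 1 on each strand. The 120 bases before the start are printed 5′ to 3′ on the strand of the gene, and capitals mark the full palindrome or the core. The GPR3 stretch is chr6:84609987-84610106 on the plus strand, the NR4A2 stretch chr15:63495373-63495492 on the minus strand and the NR4A3 stretch chr1:241569747-241569866 on the plus strand.
GPR3: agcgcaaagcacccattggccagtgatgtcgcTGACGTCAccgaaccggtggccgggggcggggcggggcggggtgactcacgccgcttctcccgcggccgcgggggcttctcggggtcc
NR4A2: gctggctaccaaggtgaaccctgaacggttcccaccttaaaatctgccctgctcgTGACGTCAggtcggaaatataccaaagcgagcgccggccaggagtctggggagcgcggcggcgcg
NR4A3: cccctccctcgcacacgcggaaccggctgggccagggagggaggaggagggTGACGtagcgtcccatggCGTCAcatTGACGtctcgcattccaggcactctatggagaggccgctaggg

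Counted from the mRNA start, GPR3 had its full palindrome at -88, and NR4A2 had 1 at -65. In NR4A2 the same palindrome lay in the windows of 2 of its 7 annotated starts. NR4A3 had no full palindrome but 3 cores within the stretch shown, at -69, -51 and -43. The full palindrome was found in 2% of 46002 mRNA starts and in 2.76% of 19535 genes, and the core in 24.7% of starts and 32.3% of genes. RGS2 had 1 core, at -189 from its only start. For CREM, PDE4B and PDE4D the core was present at 1 of 15, 1 of 6 and 1 of 23 starts. A match of letters is a description of the sequence and not a measurement of binding. NR4A1 was not searched, as the RefSeq annotation used gave no mRNA for it.

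The 15 GS libraries held 26335584 to 67522703 counts and the 12 PD libraries 14650700 to 21820935, and the groups also differed in how the level of a gene followed the length of its transcript (Spearman rho across 12807 genes 0.040 to 0.40 in GS and -0.46 to 0.0067 in PD). Within GS, pigs 9 and 17 stood apart at all 3 times, with 26335584 to 41802541 counts against 51708598 to 67522703 and rho 0.33 to 0.40 against 0.040 to 0.27. Within PD, the 0h library of pig 4 had the fewest genes detected at its time, 20298 against 21153 to 21443, and so had the 12h library of pig 2, 18979 against 20380 to 21090, with the lowest rho of all libraries, -0.46. In depth and rho the 0h library of pig 4 was within the range of the other PD libraries. RNA was extracted with 1 of 2 kits, and which kit served which library is not given in the sources used here. These libraries were singled out after the data were seen, and member changes that rest on them are given with and without them. Levels below are CPM, the count of a gene as a share of its library's total after TMM scaling, a correction for library composition, and differences are on the log2 scale. A gene was called when its Benjamini-Hochberg adjusted p in edgeR's quasi-likelihood test, adjusted over all genes tested, was below 0.05 and its fold change was at least 2. GPR3 reached the test only through its 6h and 12h libraries.

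**Figure D1:**
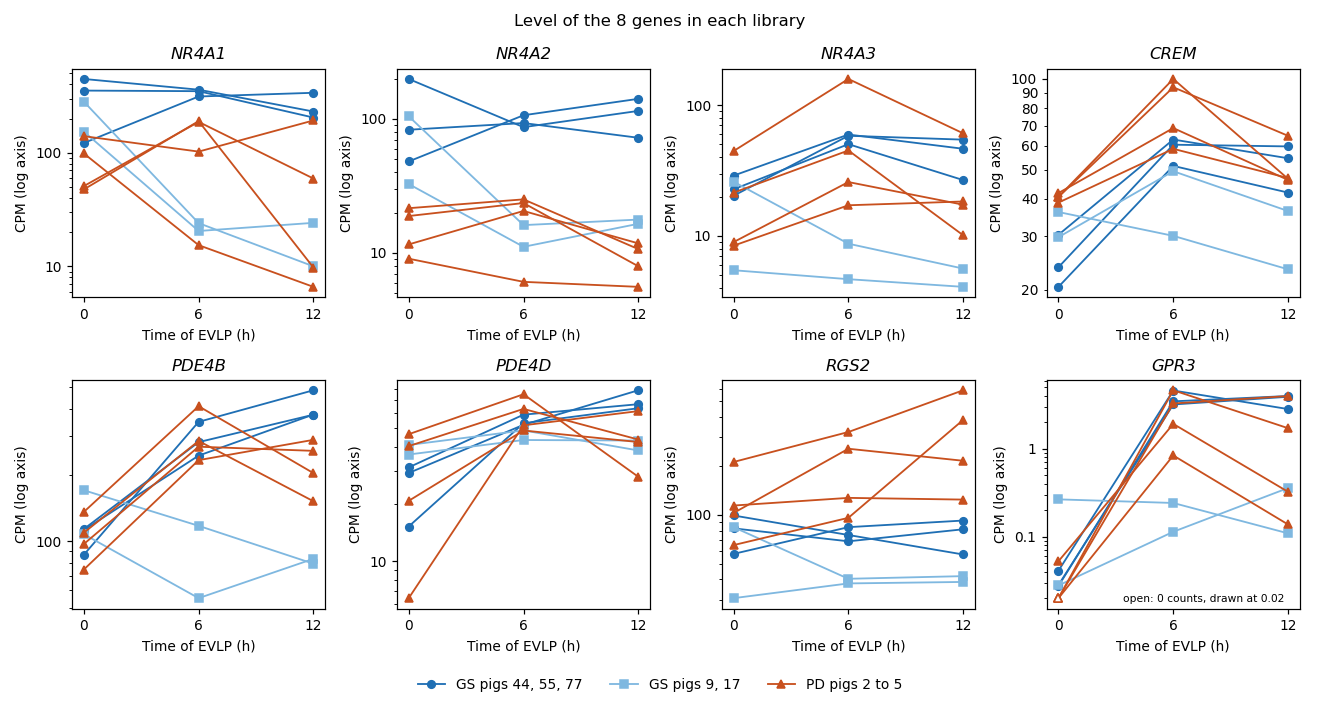
Level of the 8 genes (CPM, log axis) at 0h, 6h and 12h of EVLP, with 1 line per pig: dark blue circles for GS pigs 44, 55 and 77, light blue squares for GS pigs 9 and 17, orange triangles for the 4 PD pigs, and open symbols for 0 counts. GPR3 started at 0 to 9 counts in each 0h library and was highest, at 4.65 CPM, in a PD lung at 6h, while the light blue lines lie low for NR4A1 and NR4A2 after 0h.

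Against 0h, GPR3 was the member called in the GS group at 6h and 12h and in the PD group at 6h and 12h, higher each time, and the other 7 members were not called in any of these 4 comparisons. As GPR3 entered the test only through the times at which it is high, and was chosen for its change, its calls are a description. Of 45 cell markers in 12 lists, 1 was called higher and 2 lower in GS at 6h, 1 higher and 5 lower in GS at 12h, 0 in PD at 6h by edgeR (5 at an unadjusted p below 0.05, where 9.41% of all genes were, and 1 called by DESeq2, which called 2.75% of all genes), and 1 higher and 2 lower in PD at 12h. The summed markers of a list lay apart from their 0h values in 1 case, the 4 T and NK cell markers in PD, with 119.9 to 206 CPM at 0h and 77.01 to 111 CPM at 12h. Their part in the changes of the members was not tested. Genes called higher made up 5.5% and 6.99% of 18594 genes tested in GS at 6h and 12h, and 0.135% and 3.22% of 15545 in PD. Between 12h and 6h no member passed an adjusted p of 0.05 in edgeR in either group, and 0% of genes did. At an unadjusted p below 0.05 edgeR had 0 members in GS, where 4.74% of genes were, and 2 in PD, where 10% were, NR4A2 and NR4A3 with differences of -0.95 and -0.94. Without the 2 PD libraries singled out, GPR3 passed between 12h and 6h in PD (edgeR adjusted p = 0.049). The share of all genes in that fit is given in the closing section. At 0h, before any dialysis, NR4A1 and NR4A2 were lower in the PD group.

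GPR3, the Gs-coupled receptor (ENSSSCG00000003576, chromosome 6, plus strand, 84610107 to 84613202), was near the limit of detection at 0h. The GS lungs of pigs 9, 17, 44, 55 and 77 gave 9, 1, 3, 2 and 2 counts at 0h, and the PD lungs of pigs 2, 3, 4 and 5 gave 0, 1, 0 and 0 counts. A count of 0 in those PD libraries allows up to 0.159 to 0.172 CPM (3 counts). At 6h the GS pigs in the same order were at 0.242, 0.114, 4.62, 3.48 and 3.20 CPM, and the PD pigs at 3.29, 1.93, 0.842 and 4.65 CPM. At 12h the GS values were 0.109, 0.359, 2.84, 4.00 and 3.92 CPM, and the PD values 3.99, 0.325, 0.138 and 1.72 CPM. At 6h GS pigs 9 and 17 were thus below every other lung, and every PD library was above its own 0h floor. At 12h PD pig 4, with 2 counts, was under the floor of its 0h library.

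Summed over pigs, GPR3 in GS went from 17 counts at 0h to 662 at 6h, a ratio of 43.7 after scaling (95% exact interval 27.1 to 75.6), and to 655 at 12h, a ratio of 43.6 (27.05 to 75.4). In PD it went from 1 count to 210 at 6h, a ratio of 209.6 (37.2 to 8318), and to 72 at 12h, a ratio of 91.4 (15.9 to 3660.3). Of those 72 counts 37 came from pig 2. These intervals cover counting error only. The edgeR adjusted p was 0.0060 and 0.0039 in GS at 6h and 12h and 0.022 and 0.018 in PD. Both sets of pigs within GS differed: in pigs 44, 55 and 77 the ratio at 6h was 116 (55.9 to 289), and in pigs 9 and 17, with 10 counts at 0h and 13 at 6h, it was 1.11 (0.450 to 2.83). At 12h the ratios were 109.8 (52.97 to 274) and 1.63 (0.703 to 3.97). Without the 0h library of pig 4 and the 12h library of pig 2, the fitted change in PD was 7.10 at 6h and 5.07 at 12h (edgeR adjusted p = 9.7e-05 and 0.0022). The call in GS at 6h was lost without pig 44 (adjusted p = 0.060), and the calls in PD were lost without pig 3 or pig 5 at both times and without pig 4 at 6h, with adjusted p up to 0.63.

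NR4A1 (ENSSSCG00000031321, chromosome 5, plus strand, 17385390 to 17408514), also called Nur77, is an early response gene of macrophages and vessels. At 0h the GS pigs 9, 17, 44, 55 and 77 were at 282, 154, 447, 353 and 122 CPM, and the PD pigs 2, 3, 4 and 5 at 140.3, 47.7, 98.8 and 51.0 CPM. At 6h GS stood at 24.1, 20.5, 359.8, 349 and 313 CPM and PD at 103, 190.2, 15.4 and 187 CPM. At 12h GS stood at 10.03, 24.2, 231, 205 and 338 CPM and PD at 193, 9.79, 6.62 and 59.4 CPM. After 0h the levels in GS fell into a low pair, pigs 9 and 17, and 3 high lungs with no library between them, and the PD lungs spread over more than the range of their 0h values.

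The fitted NR4A1 change in GS was -1.48 ± 0.70 (log2, SE) at 6h and -1.88 ± 0.71 at 12h, and neither passed (edgeR adjusted p = 0.13 and 0.054), while DESeq2 called the change at 12h (-1.84, adjusted p = 0.027). Over all alternatives, each pig left out among them, the adjusted p at 12h (edgeR or DESeq2) ran from 0.012 to 0.78. Within pigs 44, 55 and 77 the change was 0.22 and -0.15 at 6h and 12h, whereas within pigs 9 and 17 it was -3.28 and -3.70 (edgeR adjusted p = 0.025 and 0.016). In PD it was 0.31 ± 1.01 at 6h and -1.29 ± 0.99 at 12h, and pigs 3 and 5 were higher at 6h than at 0h while pigs 2 and 4 were lower. Without the 2 PD libraries singled out it was 1.12 and -0.95 and did not pass. The mean level was highest in GS at 0h and lowest in PD at 12h, in the order GS 0h, GS 6h, GS 12h, PD 6h, PD 0h and PD 12h, and each pair of neighbours overlapped in range.

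NR4A2 (ENSSSCG00000015871, chromosome 15, minus strand, 63487698 to 63505244), also called Nurr1, is the relative of NR4A1 best known from dopamine neurons. At 0h GS pigs 9, 17, 44, 55 and 77 were at 105, 32.7, 199, 83.0 and 48.1 CPM and PD pigs 2, 3, 4 and 5 at 21.6, 18.8, 9.06 and 11.6 CPM. At 6h GS stood at 16.1, 11.1, 86.8, 93.1 and 106 CPM and PD at 25.1, 23.6, 6.09 and 20.6 CPM. At 12h GS stood at 17.7, 16.5, 115, 72.3 and 141 CPM and PD at 10.7, 7.95, 5.58 and 11.8 CPM. As with NR4A1, GS pigs 9 and 17 were the low libraries at 6h and 12h, and they were then in or near the range of the PD lungs. At 12h every PD lung was below every GS lung, which held for 10.8% of 17884 genes.

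The NR4A2 change in GS was -1.01 ± 0.45 at 6h and -0.81 ± 0.45 at 12h (edgeR adjusted p = 0.11 and 0.17). It was -0.05 and 0.09 within pigs 44, 55 and 77, and -2.18 and -1.83 within pigs 9 and 17 (edgeR adjusted p = 0.030 and 0.033). Over all alternatives, each pig left out among them, the adjusted p in GS (edgeR or DESeq2) ran from 0.028 to 0.94 at 6h. The lowest at 6h came with 1 pig left out. At 12h the range was 0.024 to 0.87. In PD the change was 0.21 ± 0.36 at 6h and -0.74 ± 0.36 at 12h, and 0.37 and -0.44 without the 2 PD libraries singled out, and none of these passed. In mean level the 3 GS times came first, GS 0h, GS 12h and GS 6h, overlapping in range, and PD 6h, PD 0h and PD 12h followed, also overlapping.

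At 0h the difference between the groups in NR4A2 was -2.57 ± 0.50 (PD minus GS, log2, edgeR adjusted p = 0.0016), a level of 15.3 ± 5.91 CPM (SD, n = 4) in PD against 93.4 ± 65.3 CPM (SD, n = 5) in GS, and the libraries did not overlap. For NR4A1 it was -1.64 ± 0.44 (edgeR adjusted p = 0.010), 84.4 ± 43.96 CPM in PD against 272 ± 136 CPM in GS, and PD pig 2 was above GS pig 77. NR4A1 was not called when all 27 libraries were fitted together (edgeR adjusted p = 0.19) or against GS pigs 9 and 17 alone (0.087), while NR4A2 was called in every alternative fitted, with a difference of -2.33 once the trend with transcript length was taken out. Calls were common in this comparison: 29.1% of 16477 genes were called, 13.9% lower in PD, and 34.2% did not overlap between the groups, against 2 of the 7 members tested that did not overlap, NR4A2 and CREM. GPR3 was not tested at 0h because of its low counts.

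Summed marker levels of some lists also lay apart between the groups at 0h, where 34.2% of single genes did not overlap. The alveolar type 1, airway epithelium, smooth muscle, fibroblast, T and NK cell, B cell and mast cell sums overlapped. The 6 alveolar type 2 markers measured summed to 26609 to 78136 CPM in PD and 6915 to 9619.9 CPM in GS, the 5 macrophage markers to 2091 to 2682 CPM in PD and 2943 to 5756 CPM in GS, the 5 endothelial markers to 1175 to 1538 CPM in PD and 1653 to 2292 CPM in GS, the 3 neutrophil markers measured to 599 to 1223 CPM in PD and 121 to 369 CPM in GS, and the 2 red cell markers to 51.3 to 236 CPM in PD and 0.355 to 10.3 CPM in GS. The single markers did not all follow these sums. Of 45 markers 9 were called higher and 8 lower in PD, where 15.2% and 13.9% of all genes were. Calls went in both directions among the alveolar type 2 (2 higher, 1 lower), neutrophil (2 and 1) and endothelial markers (1 and 1). The part of the markers in the NR4A differences was not tested. Group, depth and length trend cannot be told apart at 0h.

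NR4A3 (ENSSSCG00000005385, chromosome 1, plus strand, 241569905 to 241611734), or NOR1, is the third receptor of the family, known from vascular and immune cells. At 0h GS pigs 9, 17, 44, 55 and 77 were at 26.0, 5.47, 28.9, 22.7 and 20.3 CPM and PD pigs 2, 3, 4 and 5 at 44.6, 21.4, 8.43 and 8.97 CPM. At 6h GS stood at 8.72, 4.67, 59.6, 50.3 and 58.3 CPM and PD at 158, 45.0, 17.2 and 25.8 CPM. By 12h GS stood at 5.63, 4.08, 46.4, 26.7 and 54.4 CPM and PD at 60.8, 10.1, 18.3 and 17.3 CPM. All 4 PD lungs were higher at 6h than at 0h, and so were GS pigs 44, 55 and 77, while GS pigs 9 and 17 were lower.

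In PD the NR4A3 change at 6h was 1.37 ± 0.41 (edgeR adjusted p = 0.28) and at 12h 0.43 ± 0.41, and without the 2 PD libraries singled out 1.32 (adjusted p = 0.070) and 0.43. DESeq2 called the change at 6h (1.38, adjusted p = 0.046). In GS it was 0.27 ± 0.42 and -0.16 ± 0.42, and within pigs 44, 55 and 77 it was 1.23 at 6h (edgeR adjusted p = 0.0024) and 0.79 at 12h (0.013), within pigs 9 and 17 -0.98 and -1.40. The groups had a like level at 0h, 20.8 ± 16.9 CPM in PD and 20.7 ± 9.10 CPM in GS, a difference of 0.05 ± 0.53. The differences of the 3 receptors at 0h were not tested against each other. By mean level the order was PD 6h, GS 6h, GS 12h, PD 12h, PD 0h and GS 0h, with overlap between all neighbours.

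CREM (ENSSSCG00000011106, chromosome 10, plus strand, 57829518 to 57895610) encodes activators and repressors of cAMP-driven transcription, and the counts do not separate its isoforms. At 0h GS ranged from 20.4 to 36.2 CPM, with a median of 29.9, and PD from 38.9 to 41.8 CPM, with no overlap. At 6h GS pigs 9, 17, 44, 55 and 77 were at 30.1, 49.4, 62.9, 51.4 and 60.5 CPM and PD pigs 2, 3, 4 and 5 at 99.9, 68.7, 93.8 and 58.6 CPM. At 12h GS ranged from 23.3 to 59.7 CPM and PD from 46.2 to 64.7 CPM. Every lung but GS pig 9 was higher at 6h than at 0h.

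The CREM change at 6h was 0.78 ± 0.23 in GS (edgeR adjusted p = 0.024), which passed on the p but at 1.72-fold stayed under the fold change of 2, and 0.96 ± 0.30 in PD (adjusted p = 0.30). In DESeq2 the change in PD was 0.97 with an adjusted p of 0.025, under the fold change of 2. An adjusted p below 0.05 was reached by 28.5% of genes in GS at 6h and by 3 members, CREM, PDE4D and GPR3. Without pig 9, the GS change was 1.12 and was called. At 12h it was 0.51 ± 0.23 in GS and 0.32 ± 0.29 in PD, and neither passed. Within pigs 44, 55 and 77 it was 1.25 and 1.07 at 6h and 12h (edgeR adjusted p = 3.7e-04 and 5.1e-04), within pigs 9 and 17 0.22 and -0.22, and in PD without the 2 libraries singled out 0.89 and 0.34. The difference at 0h, 0.57 ± 0.20 higher in PD (edgeR adjusted p = 0.040, 1.48-fold), was not called, where 40.6% of genes had an adjusted p below 0.05. Mean levels ran PD 6h, PD 12h, GS 6h, GS 12h, PD 0h and GS 0h, and of these neighbours only PD 0h and GS 0h did not overlap in range.

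**Figure D2:**
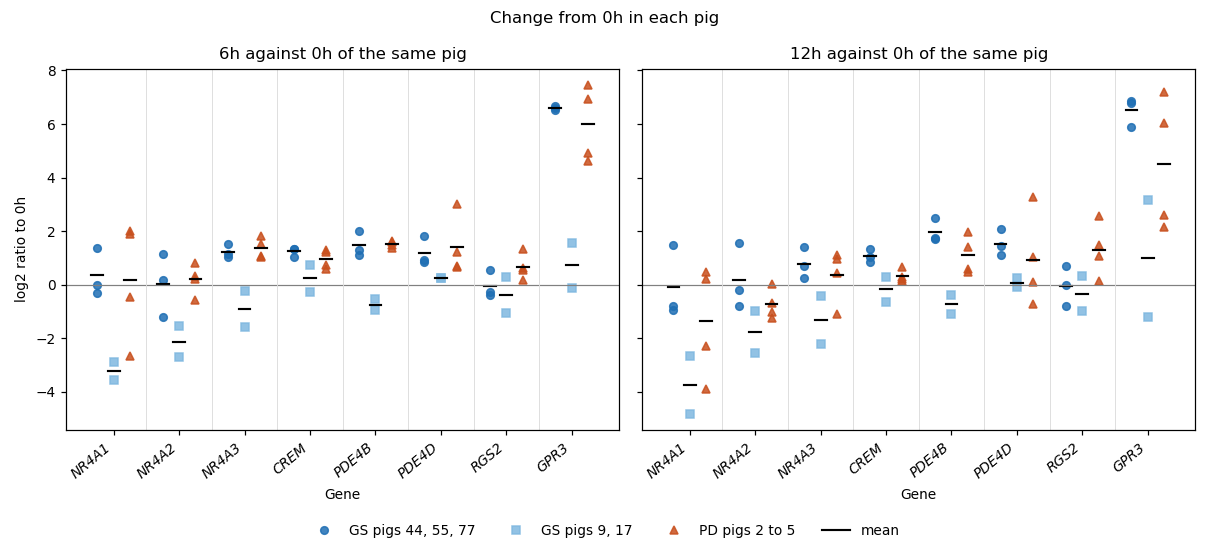
log2 ratio of each 6h (left) and 12h (right) library to the 0h library of the same pig for the 8 genes, with 1 symbol per pig (dark blue circles GS pigs 44, 55 and 77, light blue squares GS pigs 9 and 17, orange triangles PD pigs) and black bars for the mean of each set. For 7 of the 8 genes the circles lie above the squares at both times, and the 4 PD symbols of PDE4B at 6h lie between 1.38 and 1.65.

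PDE4B (ENSSSCG00000003805, chromosome 6, minus strand, 146166681 to 146720127), the cAMP phosphodiesterase prominent in leukocytes, had the smallest spread between PD pigs of the 8 members at 6h (SD of the rlog change 0.11, n = 4). At 0h GS pigs 9, 17, 44, 55 and 77 were at 171, 108, 114, 113 and 86.9 CPM and PD pigs 2, 3, 4 and 5 at 136, 109.5, 97.3 and 74.5 CPM. At 6h GS stood at 118, 55.3, 282, 245 and 349 CPM and PD at 410.5, 285.5, 269 and 234 CPM. At 12h GS stood at 79.2, 83.3, 376, 376 and 485 CPM and PD at 204, 152, 257.5 and 289 CPM. At 6h and 12h every PD lung, and GS pigs 44, 55 and 77, were above all 0h libraries of their own group, which in PD held for 5.85% and 8.66% of 15545 genes, and GS pigs 9 and 17 were below their own 0h value.

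The PDE4B change in PD was 1.52 ± 0.34 at 6h (edgeR adjusted p = 0.12, unadjusted 8.8e-04) and 1.13 ± 0.34 at 12h (adjusted p = 0.071). It was called at both times by DESeq2 (1.53 and 1.18, adjusted p = 0.0011 and 0.0076), without the pig block (1.52 and 1.11, adjusted p = 0.047 and 0.040) and without the 0h library of pig 4 and the 12h library of pig 2 (1.54 and 1.33, adjusted p = 0.0073 and 0.011). With 1 pig left out, the change in PD had an edgeR adjusted p of 0.073 to 0.95 at 6h and 0.026 to 0.48 at 12h. In GS it was 0.40 ± 0.43 and 0.75 ± 0.44, and neither passed, but within pigs 44, 55 and 77 it was 1.47 and 1.97 (edgeR adjusted p = 5.6e-04 and 1.0e-04) and within pigs 9 and 17 -0.72 and -0.73. At 0h the groups differed by -0.14 ± 0.24. Mean levels ran PD 6h, GS 12h, PD 12h, GS 6h, GS 0h and PD 0h, and the ranges of all neighbours overlapped.

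PDE4D (ENSSSCG00000016929, chromosome 16, minus strand, 37897300 to 39154586), its relative in airway smooth muscle and endothelium, went from 15.3 to 40.9 CPM (median 31.2) at 0h in GS to 43.4 to 59.0 CPM (median 52.2) at 6h, with no overlap, as for 5.68% of genes that were higher in every library, and 38.3 to 79.2 CPM (median 63.7) at 12h. PD pigs 2, 3, 4 and 5 were at 46.6, 40.3, 6.42 and 20.8 CPM at 0h, at 75.5, 63.2, 51.9 and 48.7 CPM at 6h and at 27.8, 43.7, 61.6 and 42.4 CPM at 12h. The low values at 0h in pig 4 and at 12h in pig 2 are those of the PD libraries singled out above. PDE4D was higher at 6h than at 0h in all 9 lungs.

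The PDE4D change in GS was 0.74 ± 0.24 at 6h and 0.89 ± 0.25 at 12h (edgeR adjusted p = 0.038 and 0.013), 1.67-fold and 1.86-fold, under the fold change of 2. At 12h 2 members, PDE4D and GPR3, and 38.4% of genes had an adjusted p below 0.05. With the trend with transcript length taken out it was 1.11 at 12h and was called (adjusted p = 0.0051). Within pigs 44, 55 and 77 it was 1.18 and 1.52 (edgeR adjusted p = 0.0033 and 7.2e-04), and within pigs 9 and 17 0.26 and 0.06. In PD it was 1.19 ± 0.51 and 0.83 ± 0.53 and did not pass, and without the 2 libraries singled out it was 0.81 and 0.66. At 0h the difference between the groups was -0.06 ± 0.46. Mean levels ran PD 6h, GS 12h, GS 6h, PD 12h, GS 0h and PD 0h, with overlap between all neighbours.

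RGS2 (ENSSSCG00000037241, chromosome 10, minus strand, 936789 to 940098) acts mainly on the Gq pathway and is known for limiting vascular tone. Its ratios to 0h in GS pigs 9 and 17 overlapped those in pigs 44, 55 and 77 at both times. In level pigs 9 and 17 were the lowest GS lungs at 6h and at 12h. At 0h GS pigs 9, 17, 44, 55 and 77 were at 83.9, 30.6, 99.0, 82.5 and 57.4 CPM and PD pigs 2, 3, 4 and 5 at 212, 114, 103 and 65.0 CPM. At 6h GS ranged from 37.8 to 83.9 CPM and PD from 95.8 to 324 CPM. At 12h GS stood at 41.9, 38.6, 56.9, 81.4 and 92.1 CPM and PD at 585, 124, 215 and 384 CPM. At 6h and at 12h the lowest PD lung was above the highest GS lung, which held for 10.9% and 9.7% of 17884 genes, while at 0h, where 34.2% of genes did not overlap between the groups, RGS2 did.

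All 4 PD lungs had more RGS2 at 6h and at 12h than at 0h. The change in PD was 0.66 ± 0.42 at 6h and 1.37 ± 0.44 at 12h (edgeR adjusted p = 0.63 and 0.085). The highest library, that of pig 2 at 12h, is one of the 2 singled out, and without them the change was 0.60 at 6h and 1.25 at 12h (edgeR adjusted p = 0.53 and 0.054). At 12h it was called by DESeq2 (1.41, adjusted p = 0.014) and when all 27 libraries were fitted together (1.37, edgeR adjusted p = 0.0096), settings that called 16.5% and 18.5% of all genes. With 1 pig left out, the change in PD at 12h was 0.89 to 1.77 and was not called (edgeR adjusted p = 0.074 to 0.49). In GS the change was -0.23 ± 0.22 and -0.22 ± 0.22, within pigs 44, 55 and 77 -0.06 and -0.05, and within pigs 9 and 17 -0.42 and -0.41. At 0h RGS2 in PD was higher by 0.85 ± 0.37 (edgeR adjusted p = 0.084) and by 0.11 once the trend with transcript length was taken out. The mean level ran PD 12h, PD 6h, PD 0h, GS 0h, GS 12h and GS 6h, and the ranges of all neighbours overlapped.

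**Figure D3:**
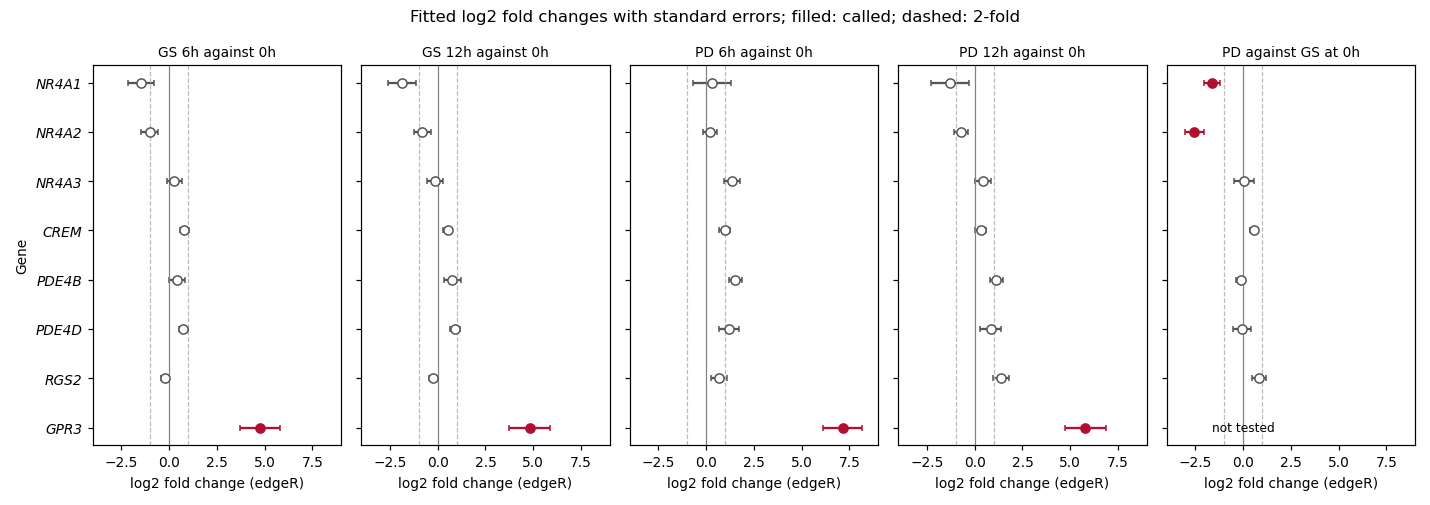
Fitted log2 fold change of each gene in edgeR with its standard error as the bar, in 5 panels for GS and PD at 6h and 12h against 0h and for PD against GS at 0h. Filled red points are the called ones, GPR3 in the first 4 panels and NR4A1 and NR4A2 in the fifth, dashed lines mark a 2-fold change, and GPR3 was not tested in the fifth panel.

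The genes that moved one way in all lungs of a group were counted next. In PD at 6h, 6 of the 8 genes were higher than at 0h in every pig, all but NR4A1 and NR4A2, where 10.7% of the genes tested were, and at 12h 4 of the 8 were, CREM, PDE4B, RGS2 and GPR3, where 13.1% of the genes were, but for GPR3 this rests on 0.5 added counts, as pig 4 went from 0 to 2 counts. In GS, PDE4D at 6h was the member higher in every pig, where 17.6% of the genes were, and at 12h there was none, where 18.4% were. The median fitted change over the 8 members was 1.07 in PD at 6h and 0.63 at 12h, and 0.33 and 0.18 in GS, beside medians over all genes tested of -0.02, -0.05, -0.05 and -0.08. Since the members were chosen for their changes in these libraries, and a group of 5 pigs has more chances to break a common direction than one of 4, nothing is read from these counts and medians.

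The split within GS was common to most members. For 7 of the 8 genes, all but RGS2, the ratio to 0h in pigs 44, 55 and 77 was above that in pigs 9 and 17 at 6h and again at 12h, which held for 25.5% and 18.6% of the genes tested. NR4A3 and PDE4B were higher than at 0h in each of the 3 lungs and lower in both others at both times, which held for 6.13% and 3.72% of the genes. The 2 sets of pigs also differed in depth and length trend, as given above. The part of depth, extraction and lung in this split was not tested. Summed markers differed along the same split, here as levels and not as ratios to 0h: at 6h the 5 endothelial markers summed to 2243 to 2929 CPM in pigs 44, 55 and 77 and 1318 to 1766 CPM in pigs 9 and 17, the 5 macrophage markers to 4952 to 5996 CPM and 2428 to 2772 CPM, the 4 smooth muscle markers to 1684 to 2211 CPM and 430.2 to 1014 CPM and the 4 fibroblast markers to 2172 to 5015 CPM and 1219 to 1242 CPM. The alveolar type 1, T and NK cell and B cell sums were also higher in pigs 44, 55 and 77 and the mast cell sum lower, with no overlap. The alveolar type 2, airway epithelium, neutrophil and red cell sums overlapped. The share of all genes with levels apart was not counted, and ratios to 0h at 6h lay above in 25.5% and below in 24.9% of genes. At 12h the lists apart at 6h were apart again except macrophage, at 3427 to 5098 CPM and 3125 to 4325 CPM. Of these lists alveolar type 1, at 1131 to 1297 CPM and 1014 to 1088 CPM, and B cell, at 80.2 to 130.1 CPM and 37.8 to 59.3 CPM, were already apart at 0h, before EVLP, as was alveolar type 2. Their part was not tested either.

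The change from 0h was then compared between the groups. They differed in dialysis, perfusate replacement, depth and length trend, which this comparison cannot tell apart. An exact two-sided Wilcoxon test on regularised log (rlog) ratios to 0h, 4 PD against 5 GS pigs, called no member at an unadjusted p below 0.05, where 6.04% of 17884 genes passed at 6h and 4.04% at 12h, and no gene passed after adjustment. The smallest p this design can give is 0.016. RGS2 came nearest, with an rlog change of 0.44 ± 0.32 (SD, n = 4) in PD and -0.08 ± 0.36 (SD, n = 5) in GS at 6h (exact p = 0.063, adjusted 0.60) and of 0.91 ± 0.69 and -0.08 ± 0.42 at 12h (exact p = 0.063, adjusted 0.81). For the other 7 genes the exact p ran from 0.19 for PDE4B at 6h to 1. In an edgeR interaction model with the pig block the difference in RGS2 was 0.88 ± 0.46 at 6h and 1.56 ± 0.47 at 12h (adjusted p = 0.78 and 0.68), and that model called no member and 0% of genes, with 5.85% and 5.98% of genes at an unadjusted p below 0.05 at 6h and 12h, and of the 8 members 0 at 6h and 1 at 12h, RGS2 (unadjusted p = 0.0034). A difference of the size seen between the groups in GPR3, with PD lungs at 0.138 to 3.99 CPM and GS lungs at 0.109 to 4.00 CPM at 12h, lay within the spread of either group.

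The rest of the cAMP pathway was taken from 8 lists with 88 genes, of which 83 were tested in GS, 80 in PD and 82 at 0h. In GS 1 rose and 4 fell at 6h and 1 rose and 6 fell at 12h, in all 6.02% and 8.43% of the genes tested where 11.1% and 15.7% of all genes were called. In PD none was called at 6h by edgeR, where 0.142% of all genes were, and 2 rose and 3 fell at 12h, in all 6.25% where 5.98% of all genes were called. At an unadjusted p below 0.05 edgeR had 11 of the 80 in PD at 6h, where 9.41% of all genes were, and DESeq2 called 4 at 6h and 12 at 12h, where it called 2.75% and 16.5% of all genes. Whether these shares differ from those of all genes was not tested.

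Among the 12 Gs-coupled receptors tested, ADRB1, the beta-1 adrenergic receptor, fell by 1.77 at 6h and by 1.59 at 12h in GS (log2, edgeR adjusted p = 0.0031 and 0.0033), with changes of -1.13 and -1.16 within pigs 44, 55 and 77 and -2.76 and -2.05 within pigs 9 and 17, all called. In PD at 12h PTGIR, the prostacyclin receptor, rose by 2.23, from 6.31 ± 2.35 to 30.1 ± 11.1 CPM (SD, n = 4, edgeR adjusted p = 0.025), and by 1.77 without the 2 libraries singled out, and ADRB3, the beta-3 adrenergic receptor, fell by 1.98 (adjusted p = 0.030). In GS at 12h neither was called, at 0.71 for PTGIR and -1.09 for ADRB3 (edgeR adjusted p = 0.15 and 0.055). PTGIR went from 8.48, 9.46 and 10.6 CPM at 0h to 23.0, 39.9 and 25.1 CPM at 12h in GS pigs 44, 55 and 77. In GS pigs 9 and 17 it went from 7.84 and 8.15 CPM to 6.23 and 6.21 CPM. None of the 12 Gs subunits and adenylyl cyclases tested in GS, or of the 9 tested in PD, was called, nor was any of the 11 protein kinase A and EPAC genes or of the 11 CREB factors, coactivators and SIK kinases. Of 13 other phosphodiesterases, PDE7B fell by 1.14 in GS and by 1.94 in PD at 12h (edgeR adjusted p = 0.0030 and 0.028), and PDE4C, a relative of PDE4B and PDE4D, fell by 3.08 in PD at 12h (adjusted p = 0.019). PDE4C had 37, 30, 40 and 40 counts at 0h in PD pigs 2, 3, 4 and 5 and 1, 6, 2 and 7 at 12h, with pigs 2 and 4 under the floor of 3 counts, and without the 2 libraries singled out it fell by 2.46.

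Of 13 textbook CREB targets tested, AREG, an EGF receptor ligand, rose in GS at both times and in PD at 12h. In PD at 6h AREG changed by 2.57 and missed the call (edgeR adjusted p = 0.070). Its mean level was 1.37 ± 1.38 CPM at 0h, 16.3 ± 8.61 at 6h and 16.6 ± 7.97 at 12h in GS (SD, n = 5; log2 change 3.75 and 3.94, edgeR adjusted p = 2.7e-04 and 1.2e-04), and 4.27 ± 4.01, 21.4 ± 10.1 and 27.6 ± 5.71 in PD (SD, n = 4; 3.09 at 12h, edgeR adjusted p = 0.017). EGR1 and FOS, immediate early transcription factors, fell in GS, with changes of -3.66 and -3.71 for EGR1 and -3.34 and -3.46 for FOS at 6h and 12h (edgeR adjusted p = 0.017, 0.013, 0.030 and 0.021). These calls rest on pigs 9 and 17, where EGR1 changed by -5.75 and -5.72 and FOS by -5.57 and -5.58. Within pigs 44, 55 and 77 EGR1 changed by -1.47 and -1.45 and FOS by -0.91 and -1.01, none of which passed (edgeR adjusted p = 0.10, 0.11, 0.24 and 0.19), and in pig 77 FOS stood at 223, 430.4 and 540.4 CPM at 0h, 6h and 12h. In PD neither was called. Among the 8 other small RGS proteins, RGS4 fell in GS by 1.18 and 1.72 (edgeR adjusted p = 0.0023 and 1.9e-04), and of the 3 RXR receptors, partners of NR4A1 and NR4A2 in DNA binding, RXRG fell by 1.58 in GS at 12h (adjusted p = 0.0066). In pigs 44, 55 and 77 alone PDE7B and RXRG at 12h, at -0.68 and -0.73, and RGS4 at 6h, at -0.9995, were under the fold change of 2, and in pigs 9 and 17 alone AREG at 12h, at 2.71, missed the adjusted p (0.051).

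At 0h 26 of the 82 list genes were called, 24 of them lower in PD, 31.7% where 29.1% of all genes were called and 13.9% were called lower in PD. Calls lower in PD included 7 of 11 CREB factors, coactivators and SIK kinases, with a list median of -1.60, and 4 of 13 textbook CREB targets, EGR1 among them at -3.79 (edgeR adjusted p = 1.8e-04), with a list median of -0.94. The median over all genes tested was 0.0018. No small RGS protein or RXR receptor was called at 0h. These list values were not refitted here with the trend with transcript length taken out, a setting that called 22.7% of all genes. At 0h the differences of the list genes between the groups cannot be told apart from depth and length trend.

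Over the 27 libraries, with the mean of each pig subtracted, the members fell into pairs of like and unlike course, given as Pearson correlations of log2 CPM that share depth and composition within a library and carry no test. NR4A1 and NR4A2 were alike at r = 0.80, and CREM, PDE4B, PDE4D and GPR3 were alike at 0.65 to 0.86 among themselves. NR4A3 stood with both, at 0.49 and 0.59 with the other receptors and 0.57 to 0.79 with that set, while NR4A1 and GPR3 had r = 0.08. The genes with a symbol most like NR4A2 were FOS (r = 0.89), ID2 (0.89) and DUSP1 (0.85), and those most like NR4A1 were MYO7B (0.91), SYT2 (0.91) and IER2 (0.89). For GPR3 they were NOCT (0.96), CSRNP1 (0.96) and IER5 (0.96), and for PDE4B DUSP5 (0.96), PRDM1 (0.93) and IER5 (0.92). PDE4D was followed by TES (0.94), ABHD17B (0.93) and UGCG (0.93), CREM by TRIM36, SLC19A2 and TIPARP (0.86 to 0.88), NR4A3 by GPR18, DYRK3 and CRTAM (0.83 to 0.87), and RGS2, with the lowest values, by TRIM21, UBB and RGS16 (0.73 to 0.75). These were the closest of 13775 genes searched for each member.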

How the data were processed

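Whole-number read counts per Ensembl gene were deposited by the authors for 27 libraries. Per the methods and the submitters' processing notes, stranded mRNA libraries were sequenced paired-end, demultiplexed with bcl2fastq 2.2.18.12, trimmed with Cutadapt 1.15, aligned with TopHat2 2.0.14 to the pig transcriptome (Sscrofa11.1) and counted with featureCounts (Subread 1.6.0). The strand setting and the treatment of reads matching several genes are not given in the sources used here. The submitters' notes also name DESeq2 1.18.1.

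The members and gene lists were chosen with earlier results of these data known. Within each group, counts of the 3 times were fitted with edgeR 4.0.16 (R 4.3.3; filterByExpr, TMM, robust quasi-likelihood test) with the pig as a block, because the 3 biopsies of a number came from the same lung. Deviations from the time means in libraries of the same pig had a mean correlation of 0.53 in GS and 0.11 in PD, against -0.12 and -0.032 between pigs. At 0h the 9 libraries were fitted without a block. Calls needed an adjusted p (Benjamini-Hochberg) below 0.05 and a fold change of 2 or more, the latter not between 12h and 6h. For the change from 0h, rlog ratios (DESeq2 1.42.0) of both groups were put to the exact Wilcoxon test, two-sided, with calls at an unadjusted p below 0.05. Ratios per pig used 0.5 added counts. GPR3 ratios carry 95% exact intervals, and the floor was 3 counts. Alternatives were another tool, scaling, filter, sample set and scale, and each pig left out. Fits on the sets of GS pigs, without 2 PD libraries and with the length trend removed (loess, span 0.5) were added after seeing the data. All members were named. From the pathway lists, genes called against 0h were named, at most the 3 with the smallest adjusted p per list and comparison. For each member the 3 genes with a symbol and the highest correlation were named. Some symbols were read by Ensembl ID from a table of gene names. The fit was tested on simulated data. Pigs are separate animals, 5 and 4 a group, which limits the precision.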

Additional observations from a re-analysis of the deposited data

Results flagged for a closer look

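Of 80 groups of pigs looked at, 5 held a library far from the others by Dixon's ratio, the gap to the nearest library over the range of the group, and chance gives about 1 in 20. The levels here are CPM with 0.5 count added. NR4A2 in PD at 6h was low in pig 4, at 6.12 CPM (ratio 0.859). NR4A3 in GS at 0h was low in pig 17, at 5.48 CPM (ratio 0.787). CREM in PD at 12h was high in pig 4, at 64.8 CPM (ratio 0.956). GPR3 in GS at 0h was high in pig 9, at 0.281 CPM (ratio 0.843), from 9 counts. GPR3 in PD at 0h was high in pig 3, at 0.0790 CPM (ratio 0.930), from the only count of GPR3 in the PD libraries at 0h.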

How the results depend on the processing

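Depth limited GPR3 most, as 3 counts in a library stood for up to 0.324 CPM in PD and 0.104 CPM in GS. Of 479 member values under other settings, 426 kept direction and side of the threshold, 26 came to pass it, 2 no longer did and 25 changed direction, and with 1 pig left out 372 of 423 kept both. The cause was not tested. Shares in brackets are those of all genes called in the same fit. The number of members called in GS at 6h (11.1%) went from 1 to 3 with no fold threshold (28.5%), to 5 in pigs 44, 55 and 77 alone (14.6%) and to 2 in pigs 9 and 17 alone (5.05%). In GS at 12h (15.7%) it went from 1 to 2 with DESeq2 (16.4%), with the length trend removed (12.6%), with no fold threshold (38.4%) or in pigs 9 and 17 alone (7.64%), and to 4 in pigs 44, 55 and 77 alone (18.9%). In PD, at 6h (0.142%) and again at 12h (5.98%), it went from 1 to 3 with DESeq2 (2.75% and 16.5%) and to 2 without the replicate block (the pairing by pig, 0.643% and 9.39%) or without the 0h library of pig 4 and the 12h library of pig 2 (2.63% and 21.1%), and at 12h also to 2 with all 27 libraries in one fit (18.5%). Without those PD libraries 1 member, GPR3, passed between 12h and 6h (4.34%). At 0h (29.1%) it went from 2 to 3 with no fold threshold, through CREM (40.6%), and to 1 with all 27 libraries in one fit (25.8%), against GS pigs 9 and 17 alone (13.9%), or with the length trend removed (22.7%), where NR4A1 had no length and was not tested.

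With 1 pig left out the number called was 0 to 2 in GS at 6h and 1 to 3 at 12h, 0 to 1 in PD at 6h and 0 to 2 at 12h, 0 to 0 between 12h and 6h in both groups, 2 to 3 at 0h, and 0 to 1 for the change compared between groups at 6h and at 12h. The 0 in GS came without pig 44, and those in PD without pigs 3, 4 or 5 at 6h and 3 or 5 at 12h.

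Directions that turned were as follows, as log2 values. In pigs 44, 55 and 77 alone NR4A1 was 0.22 in GS at 6h, NR4A2 0.094 and NR4A3 0.79 at 12h, GPR3 -0.066 between 12h and 6h, and against PD at 0h NR4A3 was -0.20, PDE4B 0.019 and PDE4D 0.18. In pigs 9 and 17 alone NR4A3 was -0.98 and PDE4B -0.72 at 6h, CREM -0.22 and PDE4B -0.73 at 12h, and PDE4B -0.0069 and PDE4D -0.20 between 12h and 6h. With the length trend removed PDE4B was 0.36 and PDE4D 0.64 at 0h, and with no filter on low counts NR4A3 was -0.0037 at 0h. Without the replicate block NR4A3 was 0.36 in GS at 12h and GPR3 -0.066 between 12h and 6h. For the 12h change between groups, log2 CPM gave -0.13 for NR4A2 and 0.23 for GPR3, the edgeR interaction with the replicate block 1.57 for GPR3, and that without it -0.40 for NR4A2, -0.060 for NR4A3, -0.13 for PDE4B and 1.496 for GPR3.

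With 1 pig left out these ranges crossed 0: RGS2 in GS -0.39 to 0.034 at 6h, -0.42 to 0.046 at 12h and -0.047 to 0.097 between them, NR4A3 in GS at 12h -0.55 to 0.49, GPR3 in GS between 12h and 6h -0.15 to 0.33, NR4A1 in PD at 6h -0.69 to 1.48, and at 0h NR4A3 -0.63 to 0.31, PDE4B -0.29 to 0.034 and PDE4D -0.40 to 0.27. For the change between groups they were CREM -0.070 to 0.17 and GPR3 -0.031 to 0.74 at 6h, and NR4A1 -0.15 to 0.76, NR4A2 -0.32 to 0.37, NR4A3 -0.11 to 0.49, PDE4B -0.21 to 0.35, PDE4D -0.49 to 0.22 and GPR3 -0.90 to 0.0021 at 12h.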
